A study of Mus musculus with 41 samples.

Results

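Chemokine ligands are small secreted proteins, grouped as CC, CXC, CX3C or XC by the spacing of their first cysteines, that direct leukocytes bearing matching G protein-coupled receptors along a gradient. In tumors they come from the cancer cells, from fibroblasts and endothelium and from the leukocytes themselves. Interferon induces the ligands of Cxcr3 that draw activated T and NK cells, and NF-kappaB induces many ligands that draw neutrophils and monocytes. The genes described here are 35 ligand genes of the 30175 gene names on the array, chosen by exact name, each read from its brightest probe. Of these 31 passed the filter on dim probes, as did 24557 genes in all.

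RNA of 41 mammary tumors was hybridised on 2-color arrays against Universal Mouse Reference RNA, a pool from 11 mouse cell lines. All tumors grew from mammary duct fragments of Trp53-null BALB/c females, taken at 8 weeks of age and placed in the cleared fat pads of wild-type BALB/c females at 3 weeks of age, so that every tumor lacked Trp53 and every host had its own immune cells. Mice ate a low fat diet (LFD) or a high fat diet (HFD) throughout, or changed at 10 weeks from HFD to LFD (HFD-LFD) or from LFD to HFD (LFD-HFD). The 29 tumors labelled as variable, called epithelial here, were 8 LFD, 8 HFD, 7 HFD-LFD and 6 LFD-HFD tumors. Of these 14 were early (before 52 weeks) and 15 late. The 12 tumors labelled spindle-like, 3 from each regimen, were 3 early and 9 late. Of 38 animal numbers in the labels, 3 are carried by more than 1 tumor, so tumors may not all be from separate mice.

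A value below is the log2 ratio of tumor to reference. It says how a ligand differs between tumors, not how abundant it is beside another ligand. The sample labels put the tumor in the Cy5 channel, whereas the methods text puts the reference there. The labels' direction was used, since Ddx3y and Eif2s3y, genes of the Y chromosome that female tumors lack, were well above background in the Cy3 channel of 41 of 41 arrays and in the Cy5 channel of 1 array. By array, 52.4% to 94.9% of spots had a tumor signal well above background (median 70.4%). Spots marked as outliers made up 0.665% of an array in the median and over 5% on 2 arrays, 60L the most. The HFD early epithelial arrays 42L4B and 60L were alone on their slide and in their scan session. The median ratio of the Y genes was -0.76 on 42L4B, -2.24 on 60L and -1.12 on the spindle array M86R, beside -3.46 over all arrays, and these 3 arrays matched their own columns of the authors' matrix poorly (r from 0.65 to 0.86). Of 9 epithelial marker genes none was called between the labelled groups and all 9 had a negative difference (spindle minus epithelial). The list mean ran from 0.23 to 3.75 in epithelial tumors and from -1.91 to 1.66 in spindle tumors. The 3.75 was that of 60L, and the next highest epithelial tumor was at 1.78. The spindle arrays were all read in a scan session of their own, with another scanner and version of the scanner software, so histology cannot be told apart from these.

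The promoters of 4 ligands are shown because the results below turn on how these ligands vary together. They are the 250 bases before the start of each gene on its own strand, from RefSeq's GRCm38.p6 table, which held 25 of the 35 ligands. Cxcl9 (chr5:92328080-92328329, minus strand) and Cxcl10 (chr5:92348890-92349139, minus strand) encode ligands of Cxcr3, and Cxcl1 (chr5:90890995-90891244, plus strand) and Cxcl2 (chr5:90903649-90903898, plus strand) encode ligands of Cxcr2. Capitals mark matches, on either strand, to the core of the interferon-stimulated response element (GAAA, any 2 bases, GAAA), the gamma-activated site (TTCNNNGAA) or the NF-kappaB motif.
Cxcl9: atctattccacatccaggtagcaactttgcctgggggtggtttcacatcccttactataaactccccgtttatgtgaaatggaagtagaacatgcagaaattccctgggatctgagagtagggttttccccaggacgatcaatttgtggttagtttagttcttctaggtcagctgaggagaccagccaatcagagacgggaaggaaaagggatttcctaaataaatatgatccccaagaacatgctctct
Cxcl10: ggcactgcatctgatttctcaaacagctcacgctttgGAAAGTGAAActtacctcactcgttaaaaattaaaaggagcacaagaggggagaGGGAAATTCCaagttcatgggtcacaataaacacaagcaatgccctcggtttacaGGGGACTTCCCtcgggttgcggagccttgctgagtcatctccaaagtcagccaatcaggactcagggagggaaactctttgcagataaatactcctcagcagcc
Cxcl1: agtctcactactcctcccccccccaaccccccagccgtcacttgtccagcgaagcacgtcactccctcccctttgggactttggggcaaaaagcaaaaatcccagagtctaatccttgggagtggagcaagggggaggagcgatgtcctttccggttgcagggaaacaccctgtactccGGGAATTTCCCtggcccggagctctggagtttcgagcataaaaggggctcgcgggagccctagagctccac
Cxcl2: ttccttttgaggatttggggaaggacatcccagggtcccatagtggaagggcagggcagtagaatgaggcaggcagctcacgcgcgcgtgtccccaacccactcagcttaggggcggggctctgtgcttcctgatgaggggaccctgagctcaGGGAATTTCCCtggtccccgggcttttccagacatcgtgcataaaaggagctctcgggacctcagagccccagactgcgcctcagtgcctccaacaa
Cxcl10 held 1 response element, 213 to 204 bases before the start, and NF-kappaB matches beginning 159, 104 and 103 bases before it, of which the last 2 overlap. Cxcl1 and Cxcl2 each held a pair of overlapping NF-kappaB matches, beginning 71 and 70 bases before the start of Cxcl1 and 97 and 96 bases before that of Cxcl2. Cxcl9 held no match to these letters in this window. Among 32851 promoters of the same length the response element core was found in 2.98%, the gamma-activated site in 7.02% and the NF-kappaB motif in 7.25%. Of the 25 ligands in the table they were found in 3, 2 and 7, in that order. A match is a run of letters and was not tested as a binding site.

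Ligand genes lie in clusters, and 12 of the 35 were on chromosome 5 and 12 on chromosome 11 by their probes (positions in mm9). In the tumor channel 22 ligands were well above background on all 41 arrays, 12 on some and Ccl20, an attractant of Ccr6-bearing cells, on none. Besides Ccl20, 3 ligands did not pass the filter and were not tested. Ccl22, a ligand of Ccr4, was well above background in 3 tumors. Ccl28, a mucosal ligand, was so in 6 tumors and Cxcl3, a neutrophil attractant, in 16. Their log2 ratios over all tumors ran from -0.23 to 0.70 for Ccl22, from -1.01 to 0.11 for Ccl28 and from -0.13 to 5.58 for Cxcl3. Cxcl3 is therefore a ligand near background in most tumors and far above the reference in some.

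**Figure D1:**
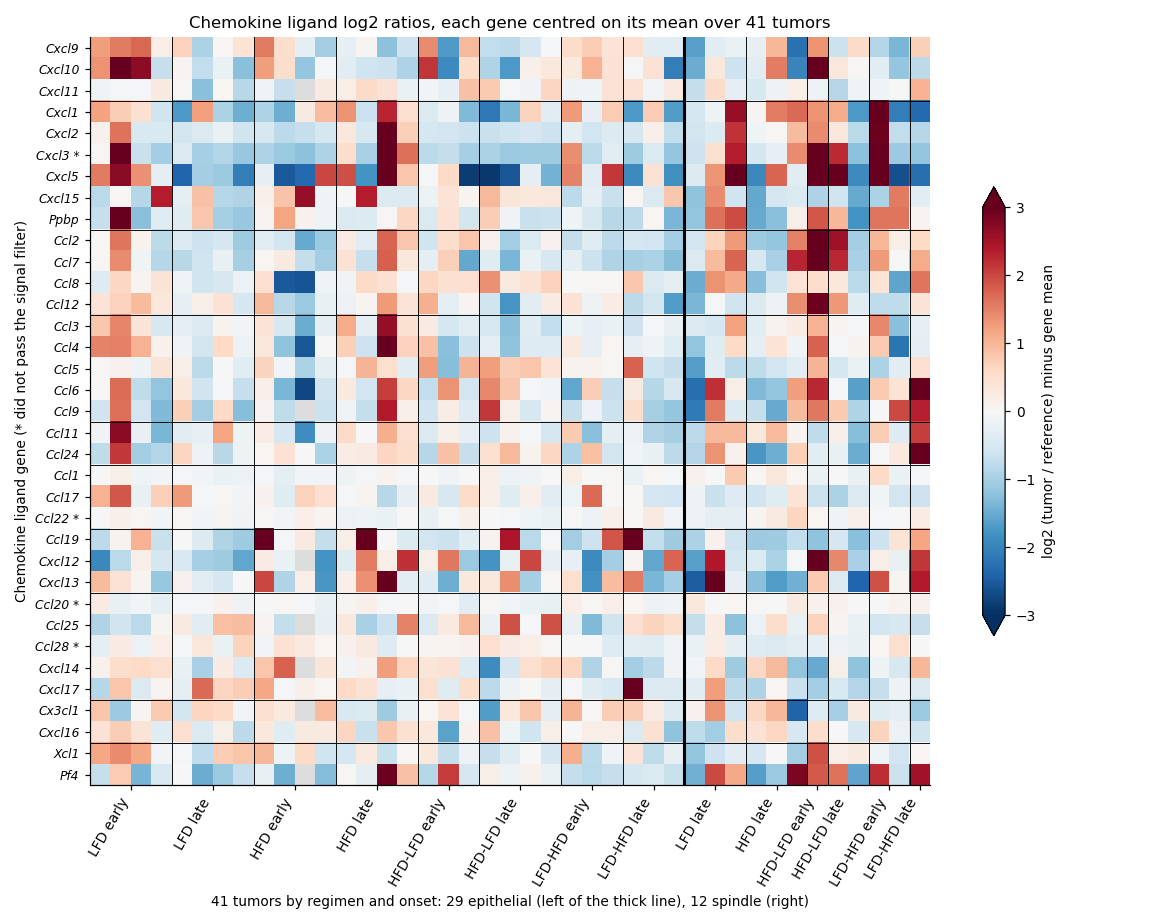
Log2 ratio of tumor to reference for the 35 ligands (rows, in groups by role) in the 41 tumors (columns, by histology, regimen and onset), each row centred on its mean over all tumors. Red is above and blue below the ligand's own mean, colors end at 3 on either side, grey is a spot marked as an outlier, and a star marks the 4 ligands that did not pass the filter. Cxcl5, from -0.10 to 7.61 before centring, has high and low tumors in both histologies.

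The ligands of Cxcr3 were well above background in every tumor. Cxcl10 ran from 1.41 to 6.58 in epithelial tumors (median 3.45) and from 1.48 to 6.78 in spindle tumors (median 3.14). Cxcl9 ran from 0.81 to 4.22 (median 2.59) and from 0.27 to 3.84 (median 2.22). Cxcl11 varied less, from -0.07 to 2.07 (median 1.14) and from 0.34 to 2.23 (median 1.05). The histologies overlapped for each of them, and none was called between histologies by limma (adjusted p = 0.871, 0.362 and 0.628).

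Of the neutrophil attractants that act through Cxcr2, Cxcl5 had the largest SD. It ran from -0.10 to 6.71 in epithelial tumors, with an SD of 1.89 (n = 29), and from 0.16 to 7.61 in spindle tumors, with an SD of 2.67 (n = 12). Cxcl1 ran from 0.14 to 4.58 and from -0.05 to 5.44. Cxcl2 had a median of 0.25 in epithelial tumors with a highest value of 5.73, and was well above background in 23 tumors. These ligands were thus near their lowest level in some tumors of either histology and very high in others. Cxcl15, known as lungkine, and Ppbp, which platelets release, were well above background in 18 and 16 tumors, so that their ratios, with medians of -2.16 and -3.41 in epithelial tumors, are mostly those of dim spots against a bright reference.

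Ligands that draw monocytes and macrophages were well above background in every tumor. Ccl8, a ligand of several CC receptors, had a median of 5.33 in epithelial and 5.64 in spindle tumors, and Ccl12, a rodent relative of Ccl2, of 2.87 and 2.54. Among the inflammatory CC ligands, Ccl3 had medians of 1.17 and 1.44, Ccl4 of 2.62 and 2.66 and Ccl5 of 2.89 and 2.35. Ccl6 and Ccl9, myeloid ligands of rodents, had medians of 1.86 and -0.24 in epithelial and 2.24 and 0.58 in spindle tumors. Each of these 7 ligands had an SD between 0.68 and 1.70 within a histology, larger than the difference between the histologies' medians.

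The remaining ligands serve other cells. The eotaxins Ccl11 and Ccl24, which draw eosinophils, had medians of 0.79 and -0.86 in epithelial tumors. Ccl1, a ligand of Ccr8, stayed between -0.02 and 1.02 in all tumors, the narrowest range among ligands tested. Of the lymphoid and stromal ligands, Cxcl13, which draws B cells, ran from -1.10 to 4.76, Ccl19, which draws Ccr7-bearing cells, from -1.33 to 4.00, and Cxcl12, which fibroblasts make, from -3.75 to 4.63. Ccl19 is one of several near-identical copies in the mouse genome, so its values are uncertain. The mucosal ligand Ccl25 had medians of -1.48 and -1.71, Cxcl14 of 1.08 and 0.78 and Cxcl17 of 0.05 and -0.49. The membrane-bound ligands Cxcl16 and Cx3cl1 had medians of 3.28 and 0.86 in epithelial tumors, Xcl1, which draws cross-presenting dendritic cells, of 0.77, and Pf4, a platelet factor, of -3.40. In bulk tumors, fewer cells of a type and less RNA per cell cannot be told apart.

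Spindle tumors had a higher Ccl7 and a lower Ccl17 than epithelial tumors. Ccl7, a monocyte attractant of Ccr1, Ccr2 and Ccr3 (probe at chr11:81860656-81860715, plus strand), ran from -0.46 to 2.88 in epithelial tumors, with a median of 0.61, and from 0.11 to 4.61 in spindle tumors, with a median of 2.12. The groups overlapped, but 9 of 12 spindle tumors were above the epithelial median and 3 above every epithelial tumor. The log2 difference was 1.21 (SE 0.34, limma adjusted p = 0.0113). Ccl17, a ligand of Ccr4 on Th2 and regulatory T cells (probe at chr8:97335770-97335829, plus strand), ran from 0.05 to 2.75 in epithelial tumors, with a median of 0.92, and from -0.07 to 1.30 in spindle tumors, with a median of 0.38. Here 1 of 12 spindle tumors was above the epithelial median and 8 epithelial tumors were above every spindle tumor. The log2 difference was -0.60 (SE 0.20, limma adjusted p = 0.0322).

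The 2 ligands called of 31 tested, 1 in each direction, stand beside 15.1% of all genes called, 6.99% higher and 8.14% lower. At an unadjusted p under 0.05 there were 8 ligands, while 28.9% of all genes passed it. The median difference was 0.00 for the ligands, 16 of which were positive. The share of ligands called was below that of all genes, a difference that was not tested. Among late tumors alone no ligand was called, with a difference of 1.03 for Ccl7 (limma adjusted p = 0.119) and of -0.34 for Ccl17 (limma adjusted p = 0.252). Ccl17 was also not called with slide as a random block (limma adjusted p = 0.0915), nor without any 1 of 3 spindle tumors, the late HFD-LFD tumor M118R (adjusted p = 0.067), the early HFD-LFD tumor M129L (adjusted p = 0.0545) or the late HFD tumor M54R (adjusted p = 0.0509).

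By role, 4 of 4 monocyte attractants had differences above 0, with a median of 0.51, but Ccl8 was at 0.0003 and Ccl12 at 0.18 (limma adjusted p = 1 and 0.739). Ccl2, the ligand of Ccr2, ran from 0.12 to 3.36 in epithelial tumors (median 1.20) and from 0.47 to 4.75 in spindle tumors (median 2.26). The difference of 0.84 (SE 0.33) did not pass the threshold (limma adjusted p = 0.0788), and its 95% interval was 0.17 to 1.51. The Cxcr3 ligands had differences of -0.45 (Cxcl9), -0.14 (Cxcl10) and -0.13 (Cxcl11), with intervals of -1.10 to 0.19, -1.02 to 0.75 and -0.47 to 0.20. With each array centred on its median in place of loess, those of Cxcl10 and Cxcl11 turned positive, 0.17 and 0.48. Cxcl11 was then called, in the reverse direction (limma adjusted p = 0.0403). The second probes of Cxcl9 and Cxcl10 were positive too, 0.08 and 0.10. Of the 5 neutrophil attractants tested 4 were positive and none was called. The 3 epithelial and mucosal ligands tested were all negative and none was called. With processed signals Ccl2, Cxcl15, Ppbp and Cxcl17 were called beside Ccl7. Cxcl15 and Cxcl17 were also called without M32L, M86R and M76R.

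**Figure D2:**
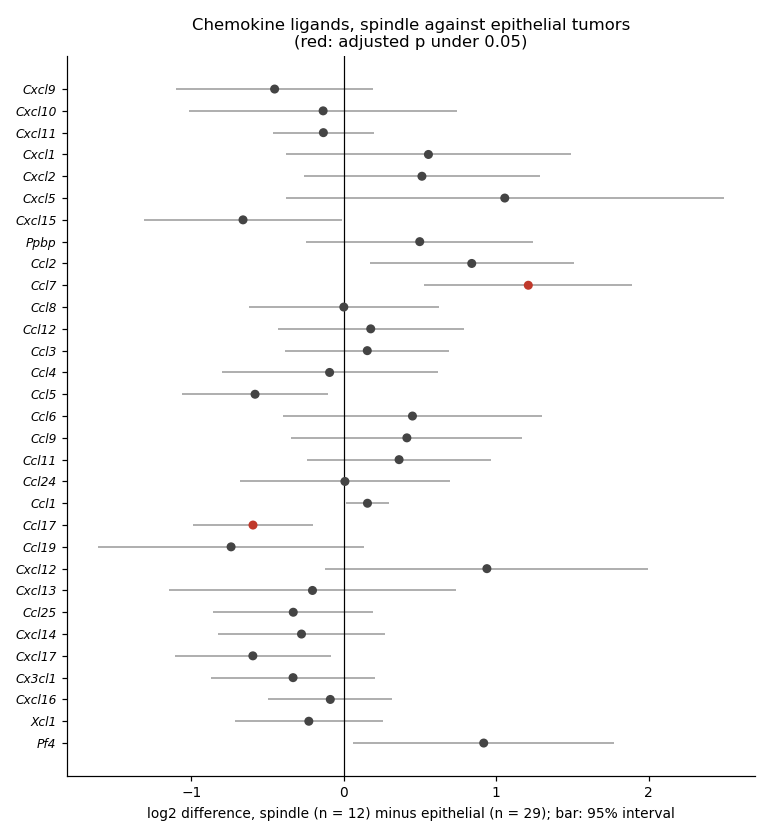
Log2 difference, spindle minus epithelial, for the 31 ligands tested (points) with 95% intervals (bars). The 2 ligands in red passed an adjusted p of 0.05: Ccl7 at 1.21 and Ccl17 at -0.60, and the others lie on both sides of 0.

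Receptors and inducers were measured in the same fit. Of 17 chemokine receptors tested none was called between histologies. The 3 of smallest p were Ccr4, the receptor of Ccl17, at -0.22 (limma adjusted p = 0.0524), Ccr9, the receptor of Ccl25, at -0.56 (adjusted p = 0.0557), and Cx3cr1, the receptor of Cx3cl1, at -0.63 (adjusted p = 0.133). Atypical receptors bind ligands without signalling through G proteins. Of 5 tested, Cxcr7, a scavenger of Cxcl12 now named Ackr3, was higher in spindle tumors by 1.24 (adjusted p = 0.0044), while Ccrl2 at -0.44 and Ccrl1 at -0.43 did not pass. Of 10 genes of NF-kappaB and its inducers only Nfkb1 was called, higher by 1.04 (adjusted p = 4.35e-06), and the next by p were Il6 at 0.75 (adjusted p = 0.0891) and Tnfaip3 at -0.52. None of 9 genes of interferon gamma signalling was called, the first by p being Jak2 at -0.35 (adjusted p = 0.101), Ifngr1 at 0.31 and Ifng at -0.12.

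Some markers of other cells were called between the same groups, where 15.1% of all genes were. Of 11 macrophage markers 2 were called, Cd163 and C1qb, both higher in spindle tumors, and the mean ratio of the list lay between -0.06 and 1.81 in epithelial tumors and between 0.50 and 1.93 in spindle tumors. Of 7 fibroblast markers 4 were called, all higher (Col1a1, Col1a2, Col3a1 and Pdgfrb), with list means from -3.80 to -0.38 and from -3.31 to 0.61. Of 9 T cell markers all had negative differences and 1 was called, Cd8a at -0.69, with list means from -0.96 to 2.28 and from -1.29 to 0.31. Of 7 neutrophil markers 1 was called, Csf3r at -0.84, while 4 of 7 were positive with a median of 0.04, and Csf3r was at -0.31 with median centring (limma adjusted p = 0.209). Of 5 endothelial markers 3 were higher (Pecam1, Cdh5 and Kdr), as was 1 of 5 platelet markers (Gp1bb). With slide as a random block Cd8a, Pecam1, Cdh5, Kdr and Gp1bb were not called (limma adjusted p from 0.0684 to 0.106), and among late tumors alone neither these nor Col1a1, Col1a2 and Col3a1 were. No dendritic, NK, B cell, epithelial, adipocyte or muscle marker was called. The part of these cells in the ligand differences was not tested.

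Early epithelial tumors had no ligand called against late ones, and Cxcl10, Ccl25 and Cxcl9 had the smallest p. Of 31 ligands 0 were called by limma at an adjusted p of 0.10, as were 0.00407% of all genes, and an unadjusted p under 0.05 was found for 5 ligands and 8.57% of all genes. Cxcl10 (probe at chr5:92775781-92775840, minus strand) ran from 1.56 to 6.58 in the 14 early tumors, with a median of 4.01, and from 1.41 to 3.90 in the 15 late tumors, with a median of 2.86. The groups overlapped, with 8 early tumors above every late tumor. The difference was 1.25 (SE 0.40, limma adjusted p = 0.431). Cxcl9 (probe at chr5:92752191-92752250, minus strand) ran from 0.81 to 4.22 in early tumors (median 3.14) and from 1.27 to 3.18 in late tumors (median 2.17), with 7 early tumors above every late tumor and 1 below. Its difference was 0.83 (SE 0.29, limma adjusted p = 0.437).

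Cxcl11, the third ligand of Cxcr3, did not share this pattern. It ran from 0.50 to 2.07 in early tumors (median 1.11, n = 13 after 1 outlier spot) and from -0.07 to 1.98 in late tumors (median 1.25), a difference of -0.05 (SE 0.18, limma adjusted p = 0.96) with a 95% interval of -0.41 to 0.31. The second probes on the array gave early minus late values of 0.78 for Cxcl10, 0.88 for Cxcl9 and -0.13 for Cxcl11. On the 3 slides with epithelial tumors of either onset (4 arrays each) the difference was 1.60, 1.37 and 0.84 for Cxcl10, 0.79, 0.53 and 1.21 for Cxcl9, and -0.35, -0.11 and -0.17 for Cxcl11. Cxcl10 and Cxcl9 were thus on the same side in each of those slides, but the slides differ in more than onset. The first had 1 early tumor, and the second held 40R4A, 57R and 65R, whose labels the authors' matrix disputes. On the last the early tumors were LFD-HFD and the late ones HFD, so onset and regimen cannot be told apart there. With slide as a fixed block the differences were 1.24 for Cxcl10 and 0.85 for Cxcl9 (limma adjusted p = 0.734 and 0.749).

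Ccl25, which draws Ccr9-bearing lymphocytes to the gut, had the second smallest p. It ran from -2.82 to -0.52 in early tumors (median -1.93, n = 13 after 1 outlier spot) and from -2.47 to 0.42 in late tumors (median -0.99), and 1 early tumor was above the late median. The difference was -0.82 (SE 0.27, limma adjusted p = 0.433). Its other probes gave -0.29, -0.11 and 0.02, the last from a probe well above background in 2 tumors, so the probes of Ccl25 disagree in size. Ccl17, with medians of 1.27 and 0.83, had a difference of 0.53, and Cxcl14, with medians of 1.32 (n = 13) and 0.79, of 0.55 (limma adjusted p = 0.504 and 0.577). These were the other 2 ligands with an unadjusted p under 0.05. Cxcl9, Cxcl10 and Ccl25 stand in a list that the study chose on these tumors, so their direction is not independent evidence.

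**Figure D3:**
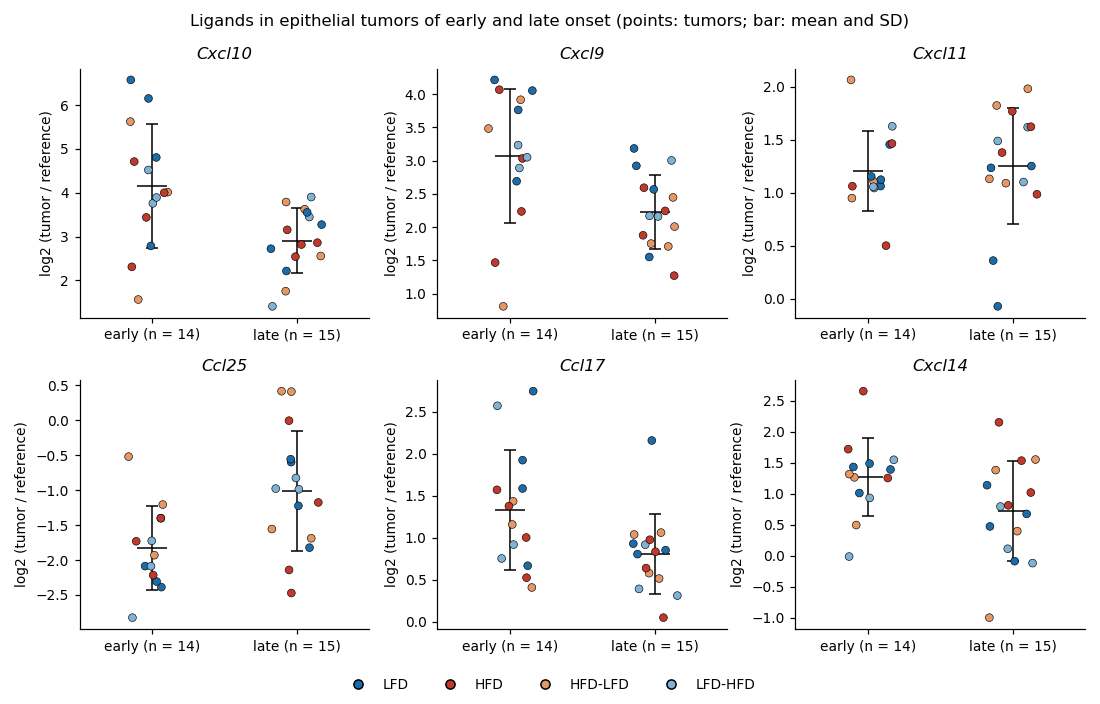
Log2 ratio of 6 ligands in the 14 early and 15 late epithelial tumors (1 point per tumor, colored by regimen; the bar is the mean and SD). Early tumors reach 6.58 for Cxcl10 and 4.22 for Cxcl9 against 3.90 and 3.18 in late tumors, while Cxcl11 overlaps throughout and none of the 6 passed the threshold.

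By role, all 3 lymphoid and stromal ligands had negative differences between early and late epithelial tumors, with a median of -0.39. None was called. Of the signals that induce Cxcr3 ligands, none of 9 interferon gamma genes was called. Irf1, an interferon-induced transcription factor, was at 0.59 (limma adjusted p = 0.488) and Irf8, of the same family, at 0.26 (adjusted p = 0.748). Of 17 receptors the first by p were Ccr8 at 0.15, Ccr9 at 0.33 and Ccr6 at 0.48. Among atypical receptors they were Ccrl2 at 0.51, Ccrl1 at -0.33 and Ccbp2 at -0.23. Among NF-kappaB genes they were Rela at -0.18, Nfkb1 at 0.19 and Tnfaip3 at -0.36. None of these was called. T cell markers had list means from -0.96 to 1.85 in early and from -0.95 to 2.28 in late tumors, and all 7 cytotoxic and NK markers had positive differences, with a median of 0.20 and none called.

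The 3 early spindle tumors were compared with the 9 late ones. Of 31 ligands 0 were called by limma, as were 0% of all genes, and 1 ligand had an unadjusted p under 0.05. Ppbp was -1.43, -1.42 and -1.18 in the early tumors and ran from -4.83 to -1.08 in the late ones, with a median of -2.94. The early tumors lay above all late tumors but 2. The difference was 1.79 (SE 0.78), with well above background signal in 2 early and 5 late tumors. Next by p were Xcl1, at 0.27, 0.72 and 2.74 in early tumors and from -0.35 to 1.1 in late ones, and Cxcl2, at 0.02, 2.17 and 3.68 in early and from -0.12 to 2.91 in late tumors. Their groups overlapped, and all 3 had a limma adjusted p of 1.

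Between histologies, the effect of onset was set side by side in a fit with an interaction term. No ligand passed, beside 0.00407% of all genes, and 2 had an unadjusted p under 0.05. They were Cxcl12, with an interaction of 2.50 (SE 1.12), and Cxcl14, with -1.24 (SE 0.58), and the next by p was Ccl9, with 1.60 (SE 0.81). In early spindle tumors Cxcl12 was -2.02, -1.60 and 4.63, so that 1 tumor held the high value.

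Tumors of mice on HFD in puberty (HFD and HFD-LFD, 21 tumors) had no ligand called against tumors of mice on LFD in puberty (20 tumors). Of 31 ligands 0 were called by limma, as were 0.00814% of all genes, and an unadjusted p under 0.05 was found for 0 ligands and 6.48% of genes. The first by p was Ccl25, from -2.47 to 0.42 (median -1.48) with pubertal HFD and from -2.82 to -0.56 (median -1.90) with pubertal LFD, a difference of 0.44 (SE 0.23, limma adjusted p = 0.795). On the 4 slides that held both groups its differences were 0.25, 0.91, -0.06 and 1.35. On the first of these slides the groups also differed in onset. Cxcl12 ran from -3.61 to 4.63 (median -1.92) and from -3.75 to 0.60 (median -2.32), a difference of 0.77 (SE 0.48), and Ccl5 from 1.52 to 4.05 (median 2.73) and from 1.13 to 4.56 (median 2.70), a difference of 0.33 (SE 0.22). The groups overlapped for all 3. The Cxcr3 ligands had differences of -0.27 for Cxcl9, -0.04 for Cxcl10 and 0.07 for Cxcl11, with intervals of -0.87 to 0.33, -0.84 to 0.76 and -0.24 to 0.37.

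Diet in adulthood gave the same count. Of 31 ligands 0 were called by limma between adult HFD (HFD and LFD-HFD, 20 tumors) and adult LFD (LFD and HFD-LFD, 21 tumors), as were 0% of all genes, and an unadjusted p under 0.05 was found for 0 ligands and 3.43% of genes. Ccl19 ran from -1.15 to 4.00 (median -0.30) with adult HFD and from -1.33 to 2.36 (median -0.64) with adult LFD, a difference of 0.68 (SE 0.39). Ccl8 ran from 2.68 to 6.88 (median 5.27) and from 3.80 to 6.66 (median 5.66), a difference of -0.46 (SE 0.27) that was -0.11 without 42L4B, 60L and M86R, and Cxcl14 from -0.29 to 2.65 (median 1.02) and from -0.99 to 1.55 (median 1.01), a difference of 0.36 (SE 0.24). All 3 had a limma adjusted p of 1, and the groups overlapped. The Cxcr3 ligands had differences of -0.26 for Cxcl9, -0.47 for Cxcl10 and 0.17 for Cxcl11, with intervals of -0.86 to 0.33, -1.26 to 0.32 and -0.13 to 0.48. On the 2 slides that held both groups the difference in Ccl19 was -0.60 and 0.43.

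Across the 4 regimens, epithelial tumors of each regimen overlapped with the others in the 6 ligands described here. The LFD and the HFD-LFD tumors were on slides of their own, and only HFD and LFD-HFD tumors shared a slide. Regimen can therefore not be told apart from slide in most of these contrasts. Among epithelial tumors 0 of 31 ligands were called by limma's F test, beside 0.533% of all genes, and 1 ligand had an unadjusted p under 0.05. Cxcl14 (adjusted p = 0.337) had medians of 1.08 in LFD, 1.53 in HFD, 1.26 in HFD-LFD and 0.45 in LFD-HFD tumors, with ranges of -0.09 to 1.49, 0.81 to 2.65 (n = 7 after 1 outlier spot), -0.99 to 1.55 and -0.12 to 1.55. Its largest contrast was LFD-HFD minus HFD, at -1.05 (SE 0.37, adjusted p = 0.245). Ccl8 (adjusted p = 0.367) had medians of 5.13, 5.22, 5.80 and 5.31, in the same order, with ranges of 4.68 to 5.90, 2.68 to 5.85, 5.58 to 6.66 and 4.85 to 6.08. HFD-LFD minus HFD was 1.11 (SE 0.39, adjusted p = 0.515), and the HFD group held the 2 tumors of lowest Ccl8, 42L4B at 2.76 and 60L at 2.68. With the scanner's processed signals these same tumors were at 6.29 and 5.91 and so not low, and the adjusted p of the F test was 0.0896, so the low values rest on the processing of these 2 arrays. Xcl1 (adjusted p = 0.387) had medians of 1.64, 0.78, 0.48 and 0.66, with ranges of 0.08 to 2.25, 0.18 to 1.84, 0.13 to 1.14 and 0.04 to 1.92, and HFD-LFD minus LFD was -0.86 (SE 0.32, adjusted p = 0.205).

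The Cxcr3 ligands overlapped among regimens of epithelial tumors. Cxcl9 had medians of 3.05 in LFD, 2.24 in HFD, 2.01 in HFD-LFD and 2.95 in LFD-HFD tumors, with ranges of 1.55 to 4.22, 1.27 to 4.07, 0.81 to 3.92 and 2.16 to 3.23. Cxcl10 had medians of 3.41, 3.01, 3.63 and 3.83, with ranges of 2.21 to 6.58, 2.31 to 4.71, 1.56 to 5.63 and 1.41 to 4.52. Cxcl11 had medians of 1.14, 1.38, 1.13 and 1.29, with ranges of -0.07 to 1.46, 0.50 to 1.77, 0.95 to 2.07 and 1.04 to 1.63. Their adjusted p by limma's F test were 0.556, 0.789 and 0.515.

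**Figure D4:**
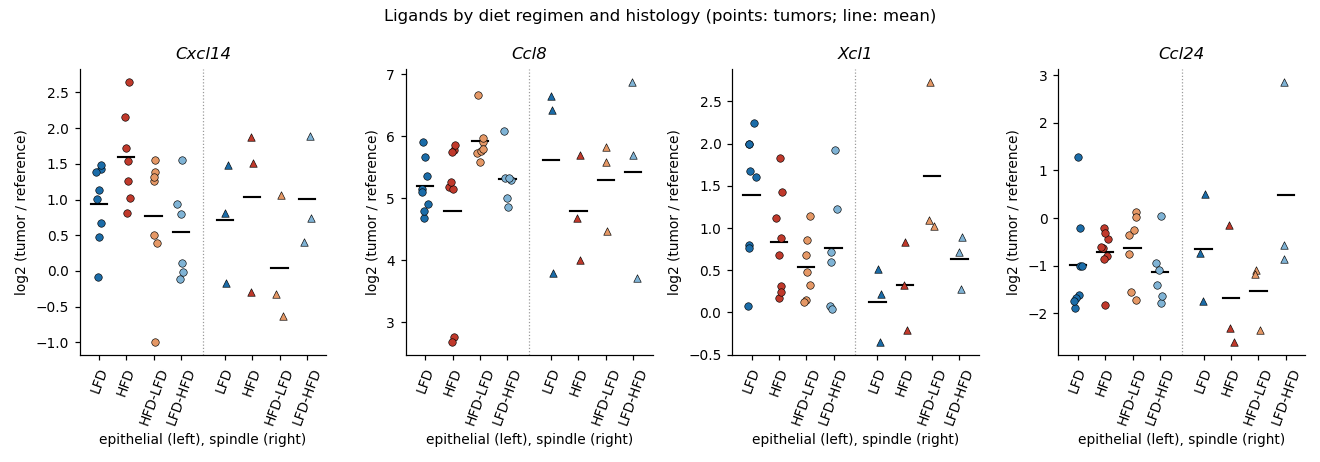
Log2 ratio of Cxcl14, Ccl8, Xcl1 and Ccl24 by regimen in epithelial tumors (circles, left of the dotted line) and spindle tumors (triangles, right), with 1 point per tumor and a line at the mean. Regimens overlap among epithelial tumors. Among spindle tumors every HFD-LFD tumor lies above those of the other regimens in Xcl1, which did not hold with the scanner's processed signals. A single LFD-HFD spindle tumor holds the highest Ccl24, at 2.86.

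Among spindle tumors, with 3 per regimen, 0 of 31 ligands were called by limma's F test, as were 0% of all genes, and 2 had an unadjusted p under 0.05. Xcl1 was -0.35, 0.22 and 0.51 in LFD, -0.20, 0.33 and 0.84 in HFD, 1.03, 1.1 and 2.74 in HFD-LFD and 0.27, 0.72 and 0.89 in LFD-HFD tumors. The 3 HFD-LFD tumors, all on the same slide, were thus the highest here. With the scanner's processed signals they were at 2.83, 3.42 and 4.68, beside 4.03 in the LFD-HFD tumor M86R and 3.78 in the HFD tumor M56LA. Ccl19 was -1.02, -0.67 and 0.07 in LFD, -1.15, -1.14 and -0.80 in HFD, -1.33, -1.27 and -0.59 in HFD-LFD and -0.70, 0.35 and 1.12 in LFD-HFD tumors. Ccl12 was 1.42, 2.20 and 2.74 in LFD, 2.37, 2.66 and 4.19 in HFD, 2.43, 4.10 and 5.74 in HFD-LFD and 2.03, 2.03 and 3.18 in LFD-HFD tumors. The adjusted p was 0.929 for each.

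Whether pubertal HFD went with a different change in spindle than in epithelial tumors was tested with an interaction term. Of 31 ligands 1 was called, Ccl24, beside 11.8% of all genes. In spindle tumors Ccl24 ran from -2.60 to -0.14 with pubertal HFD (median -1.74, n = 6) and from -1.74 to 2.86 with pubertal LFD (median -0.65, n = 6), while in epithelial tumors it ran from -1.81 to 0.13 (median -0.61, n = 15) and from -1.90 to 1.28 (median -1.25, n = 14). Its interaction was -1.89 (SE 0.63, limma adjusted p = 0.0572). Without the LFD-HFD late spindle tumor M76R, where Ccl24 was highest at 2.86, the interaction was -1.30 (limma adjusted p = 0.175), and no ligand was called. It was also above the threshold without the late spindle tumor M32L of LFD (-1.78, adjusted p = 0.125), M128L of HFD-LFD (-1.75, adjusted p = 0.109) or M54R of HFD (-1.70, adjusted p = 0.121). In M76R the adipocyte markers had a list mean of 3.93, against -4.31 to 1.43 in the other spindle tumors, and the B cell markers of 2.93, against -0.89 to 1.96. The part of these cells in the interaction was not tested. Next by p were Cxcl15 at -1.51 (adjusted p = 0.128) and Cxcl13 at -2.18 (adjusted p = 0.13).

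Ligands that act on the same receptor were then compared across tumors. For 18 relations, 10 between ligands and 8 between a ligand and the mean of a list of cell type markers, Pearson's r and Spearman's rho were computed in the 29 epithelial tumors and again in the 12 spindle tumors, with permutation tests (100000 resamples, two-sided, p adjusted by Benjamini-Hochberg over 18). A p printed after r and rho is that of r, unless rho is named. The tumors of a histology share scan sessions and slides, so r is also given after each slide was centred on its mean. In epithelial tumors Cxcl9 and Cxcl10 varied together, with r = 0.80 (rho = 0.77, permutation p = 1e-05, the smallest possible, adjusted p = 3.6e-05), and r was 0.75 with slides centred and 0.74 without the 2 tumors farthest from the median of Cxcl9. In spindle tumors r was 0.80 (rho = 0.69, adjusted permutation p = 0.00316) and 0.65 without the 2 farthest tumors.

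Cxcl11 did not follow the other Cxcr3 ligands. In epithelial tumors its r was -0.0044 with Cxcl9 and -0.0094 with Cxcl10 (rho = -0.07 and -0.03, permutation p = 0.983 and 0.963, adjusted p = 0.996 for both, 28 tumors). In spindle tumors r was 0.20 and -0.09 (rho = -0.007 and -0.23, permutation p = 0.525 and 0.766, adjusted p = 0.556 and 0.766). The 2 probes of Cxcl11 correlated at 0.76 over epithelial tumors, beside 0.91 for those of Cxcl9 and 0.85 for those of Cxcl10.

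Of the other pairs, 3 had r above 0.8 in both histologies. Ccl3 and Ccl4, both macrophage inflammatory proteins, had r = 0.92 in epithelial tumors (rho = 0.86, adjusted permutation p = 3.6e-05, 0.90 with slides centred) and 0.87 in spindle tumors (rho = 0.92, adjusted p = 0.00108). Ccl6 and Ccl9 had r = 0.86 (rho = 0.83, adjusted permutation p = 3.6e-05) and 0.89 (rho = 0.88, adjusted p = 0.00108). Cxcl1 and Cxcl5 had r = 0.85 (rho = 0.83, adjusted permutation p = 3.6e-05) and 0.85 (rho = 0.82, adjusted p = 0.00237). Without the 2 tumors farthest from the median, r of these 3 pairs ran from 0.776 to 0.865 over both histologies. Over the 10 relations of epithelial tumors with an adjusted p under 0.05, r ran from 0.49 to 0.93 within the 27 arrays of the main scan session and from 0.34 to 0.90 with slides centred.

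Among the remaining pairs, r without the 2 tumors farthest from the median fell in some and held in others. Ccl2 and Ccl7 had r = 0.73 in epithelial tumors (rho = 0.64, adjusted permutation p = 3.6e-05), which fell to 0.48 without the 2 tumors farthest from the median of Ccl2. In spindle tumors r was 0.98 (rho = 0.97, adjusted permutation p = 0.00018), and 0.97 without the 2 farthest. Ccl2 and Ccl12 had r = 0.54 (rho = 0.43, adjusted permutation p = 0.00542) and 0.75 (rho = 0.53, adjusted p = 0.00758 for r and 0.118 for rho), or 0.40 in both without the 2 farthest. Cxcl1 and Cxcl2 had r = 0.56 (rho = 0.69, adjusted permutation p = 0.00012), 0.34 with slides centred and 0.49 without the 2 farthest. In spindle tumors r was 0.90 (rho = 0.96, adjusted permutation p = 0.00045), and 0.91 without the 2 farthest. Ccl17 and Ccl22, the latter near background, had r = 0.21 (rho = 0.23, adjusted permutation p = 0.329) and 0.54 (rho = 0.30, adjusted p = 0.122), or 0.26 and -0.14 without the 2 farthest.

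Of the ligands set against cell type lists, Ccl5 followed the T cell markers in both histologies, with r = 0.57 in epithelial tumors (rho = 0.55, adjusted permutation p = 0.00301, 0.57 without the 2 farthest tumors) and 0.77 in spindle tumors (rho = 0.83, adjusted p = 0.00367). Ccl6 and the macrophage markers had r = 0.49 in epithelial tumors (rho = 0.32, adjusted permutation p = 0.013 for r and 0.124 for rho). This r fell to 0.22 without the 2 farthest tumors. In spindle tumors r was 0.85 (rho = 0.85, adjusted permutation p = 0.00108). Cxcl1 and the neutrophil markers had r = 0.59 (rho = 0.55, adjusted permutation p = 0.00157) and 0.51 (rho = 0.48, adjusted p = 0.13). These lists are means over genes that leukocytes and other cells may share, so r describes the tumors and not the source of a ligand.

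The other 5 relations with a cell type list did not pass at an adjusted p of 0.05 for r in either histology. For rho, fibroblast markers and Cxcl12 passed in epithelial and spindle tumors (adjusted permutation p = 0.0495 and 0.046). Macrophage markers and Ccl8 passed for rho in spindle tumors (adjusted permutation p = 0.0485). In epithelial tumors r was 0.37 for T cell markers and Cxcl9 (rho = 0.34, adjusted permutation p = 0.0724), 0.39 for fibroblast markers and Cxcl12 (rho = 0.42, adjusted p = 0.0683), and 0.21 for macrophage markers and Ccl8 (rho = 0.39, adjusted p = 0.329). It was 0.21 for epithelial markers and Cxcl14 (rho = 0.23, adjusted permutation p = 0.329) and -0.0009 for platelet markers and Pf4 (rho = 0.09, adjusted p = 0.996). In spindle tumors r was 0.34, 0.48, 0.62, 0.47 and 0.30 in the same order (rho = 0.41, 0.66, 0.64, 0.38 and 0.59, adjusted permutation p = 0.327, 0.15, 0.0561, 0.159 and 0.386).

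**Figure D5:**
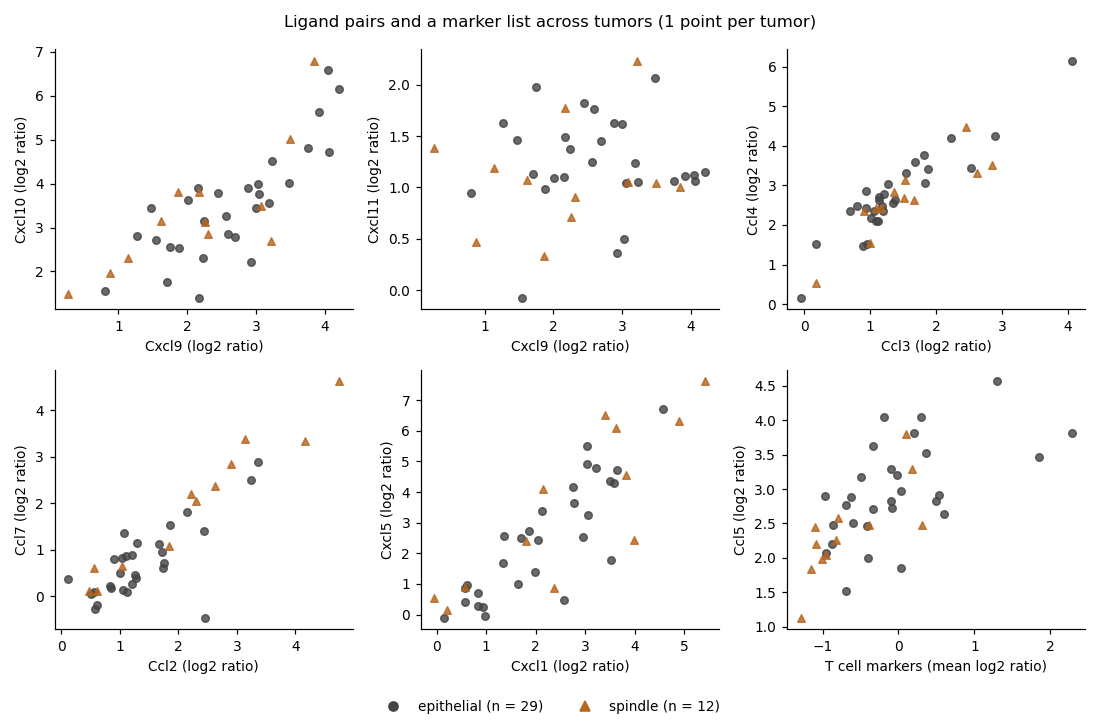
Log2 ratios of 5 ligand pairs, and of Ccl5 against the mean of 9 T cell markers, with 1 point per tumor (circles, 29 epithelial; triangles, 12 spindle). Cxcl9 and Cxcl10 rise together (r = 0.80 in both histologies), Cxcl9 and Cxcl11 do not (r = -0.0044 and 0.20), and Ccl3 and Ccl4 lie closest to a line among epithelial tumors (r = 0.92).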

How the data were processed

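Tumor and reference RNA of 41 tumors were hybridised together on Agilent 2-color arrays. Per the file headers, the scanner output came from Agilent Feature Extraction 11.0.1.1 for the epithelial and 10.5.1.1 for the spindle arrays, while the submitters' processing notes name 8.5.1.1. The deposited files hold spot intensities for each channel, and the authors also deposited a matrix of log2 ratios for 39265 probes, with 21.6% of its values missing. The deposited log10 ratio column was not used.

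From the intensities, background was corrected by normexp (offset 50) and each array was normalized by loess, in limma 3.58.1 and R 4.3.3. Control spots had weight 0 and outlier spots were left out, which removed 1.09% of gene values and 7 ligand values. Probes were kept if, for 80% of arrays or more, both channels had a background-subtracted signal above 10 (32125 of 39429), and the brightest probe stood for a gene. This normalization replaced the processed-signal ratio because the scanner software differed with histology; that ratio is an alternative. Groups were taken from the sample labels and compared by limma with Benjamini-Hochberg adjustment over all genes, at 0.05 for histology and 0.10 otherwise. SAM was not run. P-values rest on the spread between tumors, and precision is limited by how many arrays a group has. Per the paper, tissue of the same donor mice went into every diet group, and the fits had no term for donor. In the authors' matrix, the columns of 40R4A, 57R and 65R matched the scanner output of one another's labels, and those of 42L4B, 60L and M86R matched another array better than their own, though poorly, which is why alternatives leave them out; the scanner labels were used.

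The members, gene lists, relations and tests were chosen with earlier results of these data known. Values per group are given for ligands called (up to 8 per comparison), otherwise for the 3 of smallest p, and for Cxcl9, Cxcl10 and Cxcl11; of each pathway list, called genes are counted and the 3 of smallest p named, except for an item that is not reported here. Other named ligands, such as Ccl2, were chosen after their values were seen. Alternatives changed the signal, background correction, offset, normalization, filter, probe choice, data source, slide block, disputed labels, tumors included and threshold.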

Additional observations from a re-analysis of the deposited data

Results flagged for a closer look

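Over 27 groups of tumors looked at, 2 held a tumor whose gap to the nearest other tumor was large beside the group's range, where chance gives about 1 in 20. Ccl8 was 6.66 in the first late HFD-LFD epithelial tumor, with the next tumor of its group at 5.97. The array of that tumor had the lowest share of spots well above background, 52.4%, and the part of this in the value was not tested. Cxcl10 was 1.41 in 90R, a late LFD-HFD epithelial tumor, with the next at 3.45.

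The difference between tumors of pubertal HFD and LFD mice in Ccl24, the eotaxin that draws eosinophils, itself differed between spindle and epithelial tumors by -1.89 on the log2 scale (limma adjusted p = 0.0572).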

How the results depend on the processing

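No paired analysis was run, and slide was used as a block in alternatives instead. By the number in their labels, 11L and 11R (late and early LFD epithelial) fell in compared groups. So did 56R and M56LA (HFD epithelial and spindle). The fits treated all tumors as separate. Histology had 2 ligands called, beside 3714 of all genes. With the number of all genes called in brackets, the ligand count was 5 with processed signals (5205) and 4 at a threshold of 0.1 (5369). It was 4 with each array centred on its median (3607), 1 if background was not corrected (4482) and 1 in the authors' matrix (4168). It was 1 with slide as a random block (2145), 5 without M32L, M86R and M76R (5663), and 0 in late tumors only (2329). Leaving out 1 tumor gave 1 to 3 (2961 to 4196). Ccl7 was called in 14 of 15 alternatives and in 41 of 41 fits that left out a tumor, Ccl17 in 8 of 15 and 38 of 41. Ccl17 was not among the ligands called with processed signals or with median centring. The 4 regimens of epithelial tumors had 0 ligands called, beside 131 genes, and 1 (Ccl8) with processed signals, beside 96 genes. With slide as a random block 0 ligands were called, beside 13 genes. The interaction of pubertal HFD with histology had 1 ligand called, beside 2886 genes. It had 0 at a threshold of 0.05 (1764 genes), 0 with processed signals (115) and 0 if background was not corrected (857). It had 3 without a filter (3353) and 0 in the authors' matrix (182). Without 42L4B, 60L and M86R it had 2, Ccl24 and Ccl8 (1594), and without M32L, M86R and M76R it had 0 (153). With median centring the 1 ligand was Ccl12 in place of Ccl24 (-1.46, limma adjusted p = 0.164). Leaving out 1 tumor gave 0 to 4 (1432 to 4204 genes). The other 6 counts were 0 in every alternative run.

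Of 3811 values of 76 named results under alternatives, 3661 kept their direction and side of the threshold, 66 lost the call, 54 gained one and 30 reversed. Between histologies, Cxcl10 was 0.17 with median centring, 0.011 without M32L, M86R and M76R and 0.23 in late tumors only, and -0.445 to 0.0366 leaving out 1 tumor. With median centring Cxcl11 was 0.48, and called, and Jak2 was 0.013. Ifngr1 was -0.065 without M32L, M86R and M76R, and Ifng was 0.0086 with processed signals and 0.20 in the matrix. Between early and late epithelial tumors, Cxcl11 was 0.024 with processed signals, 0.055 with median centring and 0.013 without 42L4B, 60L and M86R, and -0.14 to 0.013 leaving out 1 tumor. With slide as a fixed block Ccbp2 was 0.091 and Nfkb1 -0.22. For pubertal diet, Cxcl10 was 0.084 with slide as a random block and -0.206 to 0.123 leaving out 1 tumor, and Cxcl11 was -0.27 with median centring and -0.031 as the mean over probes. For adult diet, Cxcl11 was -0.069 with median centring. The cause was not tested. Dim spots limit Ccl19, Cxcl2, Cxcl15 and Ppbp.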
